A study of Homo sapiens with 6 samples.

Results

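The integrin and laminin genes expressed by TC71 cells were compared between cells with and without EHD1 knockdown. The members were the 38 genes of the deposited count table whose symbols name an integrin alpha subunit (18 genes), an integrin beta subunit (8 genes) or a laminin chain (12 genes), out of 60676 genes in all. TC71 is an established Ewing sarcoma cell line. All 6 libraries came from TC71 cells carrying a Dox-inducible lentiviral shRNA construct and grown with 0.5 µg/ml Dox for 3 days. In 3 libraries, called controls or shNTC+Dox, the construct carried a non-targeting shRNA, and in the other 3, called knockdown cells or shEHD1+Dox, it carried an shRNA against EHD1. According to the study's methods the lines were selected with puromycin and were not single clones, and the labels do not say which EHD1 shRNA was used. Untreated cells without Dox were not analysed here. The groups were separately made lines, so a difference between lines and an effect of EHD1 knockdown cannot be told apart here.

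Integrins are cell-surface receptors, each made of an alpha and a beta subunit, that bind extracellular matrix or other cells on the outside and link to actin through adaptor proteins on the inside. Laminins are large secreted proteins, each built from an alpha, a beta and a gamma chain, that form the main polymer of basement membranes and are bound by a subset of integrins and by dystroglycan. Integrins are carried continuously between endosomes and the plasma membrane, and EHD1, the gene silenced here, encodes an ATPase of endocytic recycling. Protein and surface levels were not measured in these libraries, which report RNA.

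EHD1 itself was measured first, as a check of the labels. It stood at 27.1, 28.0 and 26.3 CPM (counts scaled to library size, here with TMM factors) in control replicates 1 to 3 and at 7.54, 7.15 and 9.36 CPM in knockdown replicates 1 to 3. Its log2 fold change was -1.76 (SE 0.12, edgeR adjusted p = 0.000135), a fall present in all 3 knockdown libraries. The total count ran from 22711235 to 28203023 in controls and from 24150135 to 30582187 in knockdown cells, so that 1 CPM stood for 22.4 to 31.0 counts. All 12 marker genes listed for Ewing sarcoma cells were present at 1 CPM or more, among them the surface protein CD99 at 219 to 317 CPM. All 5 endothelial markers and 6 of 8 epithelial markers were under 1 CPM in every library. The other 2 epithelial markers, KRT8 and KRT18, were expressed, at 3.18 to 9.29 CPM and at 23.8 to 30.7 CPM. In the control group, replicates 1 and 2 were closer to each other than either was to replicate 3, with a chi-square per degree of freedom of 5.27 against 23.7 and 25.1. Among the knockdown libraries, replicates 1 and 3 were the closest, at 7.39 against 16.9 and 16 with replicate 2.

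Of the 38 genes, 26 had at least 10 counts in at least 3 libraries and were tested, 12 alpha subunits, 5 beta subunits and 9 laminin chains. Each of the 26 reached 10 counts in both groups. In shEHD1+Dox, 6 of them rose at an adjusted p under 0.05 (ITGA6, ITGA2, ITGB2, LAMA2, LAMA3 and LAMC1) and 3 fell (ITGAE, LAMA5 and LAMB2). The 6 that rose were 23.1% of the tested members, where 8.59% of all 16785 tested genes rose. The 3 that fell were 11.5% of the tested members, where 8.75% of all tested genes fell. The number that fell was 0 without shNTC+Dox replicate 1 or 2 or without shEHD1+Dox replicate 1 or 3, it was 1 without shEHD1+Dox replicate 2, and it was 4 without shNTC+Dox replicate 3, while the number that rose stayed between 4 and 8. In either direction the share was 34.6%, against 17.3% of all tested genes. With the further condition of a 2-fold change, 1 member remained on the higher side, ITGA6, where 1.08% of all tested genes passed, and 0 on the lower side by edgeR and by DESeq2, where 1.74% passed (2.82% of all tested genes in either direction). The lowest log2 fold change of a tested member was -0.70. The median log2 fold change of the tested members was 0.11, with 16 values above 0 and 10 below, and that of all tested genes was 0.0008. The shEHD1+Dox libraries were all above the shNTC+Dox libraries in 9 members (34.6%, against 19.9% of all tested genes) and all below in 4 (15.4%, against 19.4%). In bulk RNA, a smaller share of cells expressing a gene and less of its RNA per cell cannot be told apart, and this holds for every value below.

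**Figure D1:**
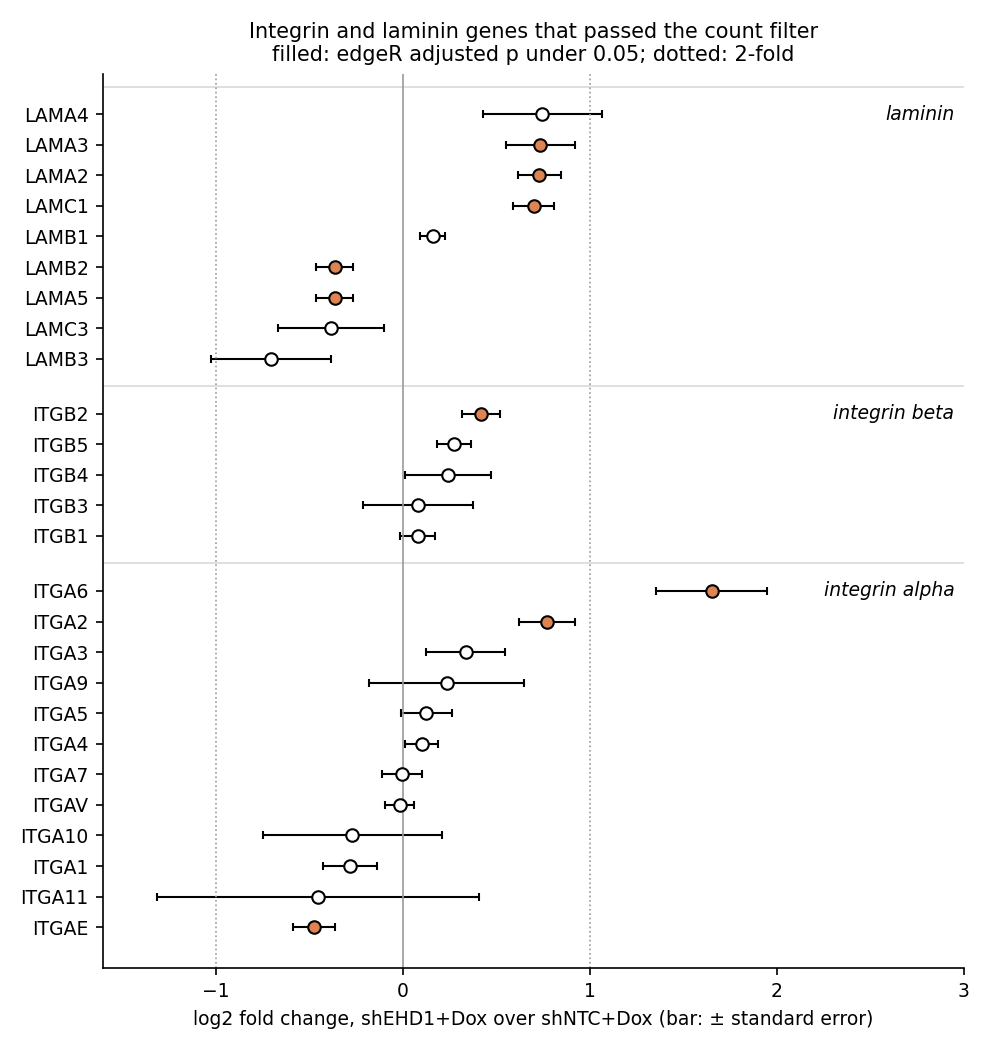
Log2 fold change of shEHD1+Dox over shNTC+Dox (x axis) with its standard error for the 26 tested integrin and laminin genes, grouped by family. Filled points passed at an edgeR adjusted p under 0.05, and ITGA6 at 1.65 was the only point past the dotted 2-fold lines.

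Of all members, the laminin genes LAMA2 and LAMC1 had the lowest adjusted p values. LAMA2 encodes the alpha chain of the laminin of muscle and peripheral nerve basement membranes and lies at chr6:128883138-129516566 (hg38, plus strand). It measured 72.7, 75.7 and 55.6 CPM in controls and 114, 118 and 107 CPM in knockdown cells. The lowest knockdown library was above the highest control library, and the log2 fold change was 0.73 (SE 0.11, edgeR adjusted p = 0.00394). LAMC1 encodes the gamma chain used by most laminins and lies at chr1:183023420-183145592 (plus strand). Its levels were 108, 114 and 83.3 CPM in controls and 170.4, 166.9 and 160.3 CPM in knockdown cells. These groups were also apart, with a log2 fold change of 0.70 (SE 0.11, edgeR adjusted p = 0.00435). Both genes passed with any 1 of the 6 libraries left out, at adjusted p values of at most 0.0243.

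LAMA3 encodes the alpha chain of epithelial laminins and lies at chr18:23689453-23956222 (plus strand). It was expressed at a low level, 3.42, 2.92 and 2.51 CPM in controls and 5.23, 4.65 and 4.87 CPM in knockdown cells. The groups did not overlap, and the log2 fold change was 0.74 (SE 0.19, edgeR adjusted p = 0.0279). LAMB3, a beta chain of epithelial laminin, had 1.80 ± 0.27 CPM in controls and 1.11 ± 0.37 CPM in knockdown cells (SD, n = 3 each, log2 fold change -0.70, edgeR adjusted p = 0.166). The LAMA3 call was lost without shNTC+Dox replicate 2 (adjusted p = 0.0704) and without shEHD1+Dox replicate 1, 2 or 3 (0.110, 0.0576 and 0.0921), with log2 fold changes from 0.63 to 0.86 over the 6 omissions.

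LAMA5 and LAMB2 moved the other way. LAMA5, at chr20:62307955-62367312 on the minus strand, encodes the alpha chain of the laminin most widespread in adult basement membranes. It stood at 68.6, 62.3 and 52.8 CPM in controls and at 46.1, 49.4 and 47.5 CPM in knockdown cells. LAMB2, at chr3:49121114-49133118 on the minus strand, encodes the beta chain found at the neuromuscular junction and in the kidney glomerulus. It measured 64.1, 64.3 and 52.7 CPM in controls and 49.7, 43.0 and 48.2 CPM in knockdown cells. In both genes every knockdown library was below every control library, with control replicate 3 closest to the knockdown group. The log2 fold changes were -0.36 for LAMA5 (SE 0.10) and -0.36 for LAMB2 (SE 0.10), each with an edgeR adjusted p of 0.0360. Without shNTC+Dox replicate 3 they were -0.46 and -0.45 (adjusted p = 0.00167 and 0.00273). Leaving out any other library ended both calls, with adjusted p values from 0.0762 to 0.134 for LAMA5 and from 0.0826 to 0.112 for LAMB2. LAMA5 shares 244 exon bases with ADRM1 on the other strand, which went from 91.1 to 73.7 CPM and did not pass (edgeR adjusted p = 0.296).

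The remaining tested laminin genes did not pass. LAMB1, the beta chain most often joined to LAMC1, had 171, 172 and 155 CPM in controls and 188, 186 and 183 CPM in knockdown cells. All knockdown values were above the control values, but the log2 fold change of 0.16 (SE 0.07) had an edgeR adjusted p of 0.128. It shares 300 exon bases with DLD on the other strand, at 124 and 117 CPM. LAMA4, the alpha chain of vascular laminin, was at 2.62 ± 0.92 CPM in controls and 4.40 ± 1.37 CPM in knockdown cells (SD, n = 3 each), with a log2 fold change of 0.75 but a standard error of 0.32 (edgeR adjusted p = 0.142). This difference was 0.49 without shNTC+Dox replicate 1 and 0.47 without shEHD1+Dox replicate 2. LAMC3 was at 2.80 ± 0.75 and 2.15 ± 0.57 CPM in overlapping groups, with a log2 difference of -0.38 (edgeR adjusted p = 0.394) that was -0.15 without shNTC+Dox replicate 3 and -0.18 without shEHD1+Dox replicate 3. LAMA1 had no count in any library and LAMB4 at most 6 counts, where 3 counts correspond to between 0.0968 and 0.134 CPM.

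**Figure D2:**
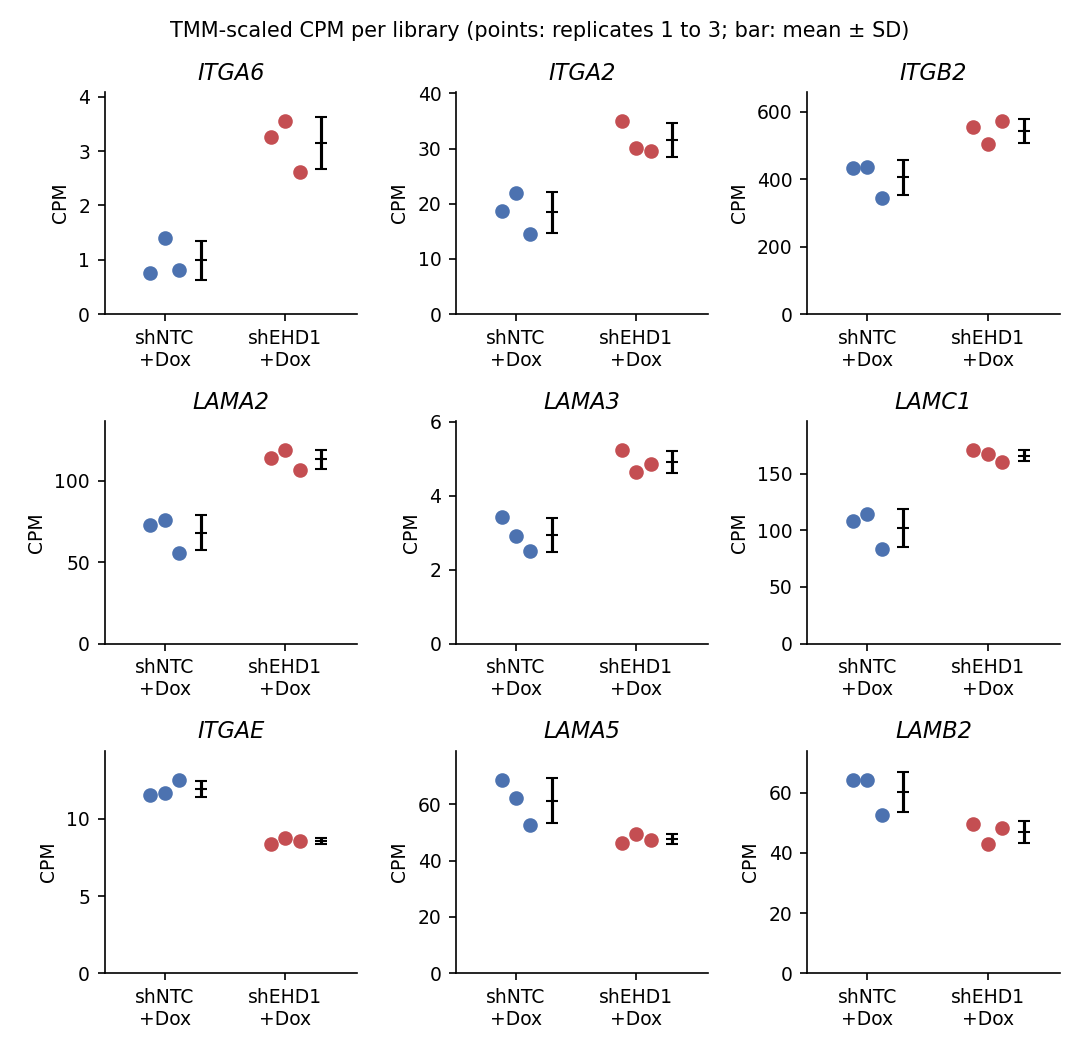
TMM-scaled CPM (y axis, from 0) of the 9 members that passed, with 1 point per library and a bar for the mean ± SD of 3 libraries. In each panel the groups do not overlap, and shNTC+Dox replicate 3 is the lowest control library for ITGA2, ITGB2, LAMA2, LAMA3, LAMC1, LAMA5 and LAMB2.

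The stretches of genome just before the starts of the 2 rising and the 2 falling laminin genes with the most counts are shown because these genes moved in opposite directions. They are the 250 bases before each start in RefSeq (GRCh38.p14), written 5′ to 3′ on the strand of the gene. Capitals mark the GC box, searched as GGGCGG and, on the other strand, as CCGCCC. LAMA2 is read from chr6:128882888-128883137, plus strand. LAMC1 is read from chr1:183023170-183023419, plus strand. LAMA5 is read from chr20:62367313-62367562, minus strand. LAMB2 is read from chr3:49133051-49133300, minus strand. The first 3 windows lie outside the GENCODE gene, whereas GENCODE starts LAMB2 further upstream, so that 68 bases of its window lie inside the gene span given above.
LAMA2: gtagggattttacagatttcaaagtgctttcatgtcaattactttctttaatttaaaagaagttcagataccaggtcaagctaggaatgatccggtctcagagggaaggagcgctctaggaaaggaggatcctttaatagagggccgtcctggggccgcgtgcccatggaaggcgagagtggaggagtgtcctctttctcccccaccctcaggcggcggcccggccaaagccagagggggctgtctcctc
LAMC1: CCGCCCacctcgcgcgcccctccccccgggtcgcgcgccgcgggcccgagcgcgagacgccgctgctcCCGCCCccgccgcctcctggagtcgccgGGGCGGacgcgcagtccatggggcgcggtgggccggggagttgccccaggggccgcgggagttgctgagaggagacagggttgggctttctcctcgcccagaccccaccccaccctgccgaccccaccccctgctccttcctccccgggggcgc
LAMA5: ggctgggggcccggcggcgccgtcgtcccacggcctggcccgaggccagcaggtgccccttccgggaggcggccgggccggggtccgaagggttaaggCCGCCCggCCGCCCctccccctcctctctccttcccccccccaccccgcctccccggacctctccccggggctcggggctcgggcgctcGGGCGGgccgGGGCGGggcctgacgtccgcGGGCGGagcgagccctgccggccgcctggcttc
LAMB2: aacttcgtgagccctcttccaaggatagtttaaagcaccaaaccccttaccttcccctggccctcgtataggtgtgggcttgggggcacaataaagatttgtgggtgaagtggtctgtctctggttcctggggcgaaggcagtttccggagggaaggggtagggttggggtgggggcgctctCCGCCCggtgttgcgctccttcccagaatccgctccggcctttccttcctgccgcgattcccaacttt

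The stretch before LAMC1 held 3 GC boxes at 79.6% G and C, that before LAMA5 held 5 at 82.8%, that before LAMB2 held 1 at 58.4%, and that before LAMA2 held 0 at 53.2%. Among the 35116 promoters of the same length in the RefSeq table, 42.6% held a GC box and the median content of G and C was 58.0%. The 2 stretches richest in G and C thus belonged to a rising and a falling gene. A match is a description of letters and not a bound site. Of the 38 members, 26 matched an entry of that table.

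Because LAMA2 and LAMA5 moved apart, the make-up of the laminin counts was compared within each library. These ratios were chosen after the values were seen and are given as descriptions without a test. LAMA2 made up 49.7%, 52.6% and 48.7% of the counts of all laminin alpha chains in controls and 67.4%, 66.4% and 65.7% in knockdown cells. LAMA5 made up 46.9%, 43.3% and 46.2% in controls and 27.2%, 27.7% and 29.2% in knockdown cells. Counts, which are not corrected for gene length, were thus split about evenly between these 2 genes in control cells and were mostly LAMA2 in knockdown cells. Per kilobase of all annotated exons the mean levels were 2.57 for LAMA2 and 4.29 for LAMA5 in control cells (CPM per kilobase), and 4.28 for LAMA2 and 3.33 for LAMA5 in knockdown cells. On this scale the order of both genes was turned, whereas per kilobase of the longest transcript LAMA2 was the higher in both groups. The log2 ratio of LAMA2 to LAMA5 counts went from 0.15 ± 0.12 to 1.25 ± 0.07 (SD, n = 3 each). Its difference of 1.10 ranged from 1.06 to 1.17 when any 1 library was left out, and it was 1.06 without control replicate 3, which was low in both genes. The log2 ratio of LAMB1 to LAMB2 went from 1.46 ± 0.08 to 1.99 ± 0.11, and that of LAMC1 to LAMB1 from -0.71 ± 0.16 to -0.16 ± 0.03. The summed laminin count was 468 ± 49.7 CPM in controls and 572 ± 13.2 CPM in knockdown cells, a log2 difference of 0.29 (SE 0.09, edgeR adjusted p = 0.0490). That call was lost without any library other than shNTC+Dox replicate 3, with adjusted p values from 0.0653 to 0.152, while the log2 difference without that replicate was 0.20.

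**Figure D3:**
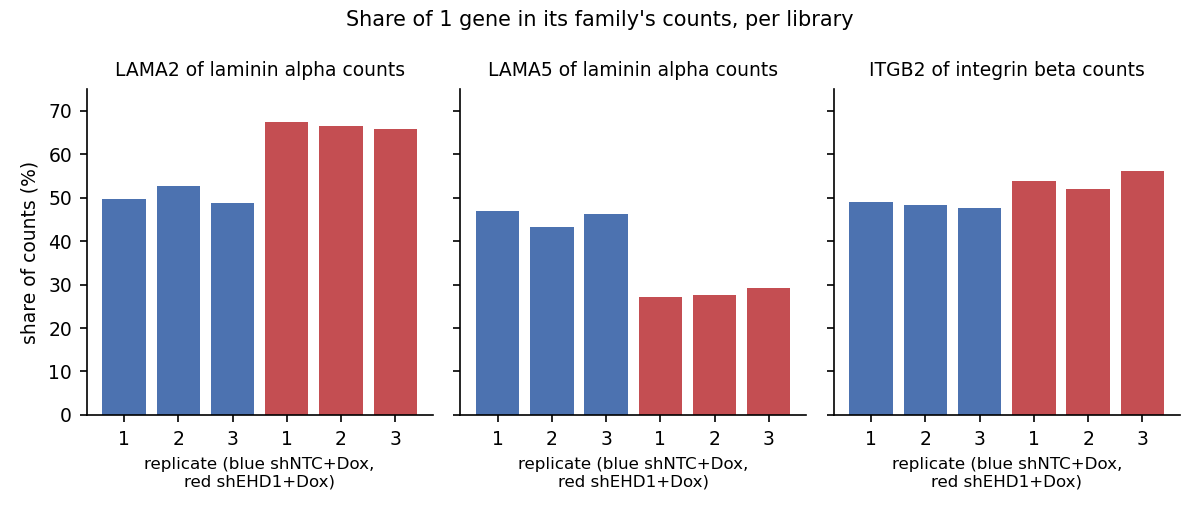
Share of 1 gene in the counts of its family (y axis, percent, from 0) in each of the 6 libraries. LAMA2 took 48.7% to 52.6% of laminin alpha counts in shNTC+Dox and 65.7% to 67.4% in shEHD1+Dox, LAMA5 went the other way, and ITGB2 took 47.7% to 49.1% and 52.1% to 56.2% of integrin beta counts.

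Among the receptors, ITGA6 had the largest fold change of all tested members. ITGA6 encodes an alpha subunit of laminin-binding integrins and lies at chr2:172427354-172506459 (plus strand). It had 20, 39 and 18 counts in controls and 93, 87 and 81 counts in knockdown cells, that is 0.759, 1.41 and 0.805 CPM against 3.26, 3.55 and 2.61 CPM. The groups were well apart at a low level, and the log2 fold change was 1.65 (SE 0.30, edgeR adjusted p = 0.00698), a 3.14-fold rise. The call held with any 1 library left out, with log2 fold changes from 1.49 to 2.00 and adjusted p values of at most 0.0343. When the 2-fold threshold was tested within the model, edgeR passed 0 members, with 1 member at an unadjusted p under 0.05, and 7 of all tested genes passed on the higher side.

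ITGA2 encodes the alpha subunit of the main collagen-binding integrin of platelets and epithelia, which also binds laminin, and lies at chr5:52989340-53094779 (plus strand). It measured 18.7, 22.0 and 14.6 CPM in controls and 35.0, 30.1 and 29.5 CPM in knockdown cells. Every knockdown library was above every control library, with a log2 fold change of 0.77 (SE 0.15, edgeR adjusted p = 0.00956). Its neighbour on chromosome 5, ITGA1, encodes the other widely expressed collagen-binding alpha subunit and had 31.6, 34.3 and 23.2 CPM against 23.3, 26.9 and 23.2 CPM. These groups overlapped through control replicate 3, with a log2 fold change of -0.28 (SE 0.14, edgeR adjusted p = 0.215) over all libraries and of -0.43 (adjusted p = 0.0100) without that replicate. ITGA1 shares 499 exon bases with PELO on the same strand, which went from 30.2 to 32.9 CPM (log2 fold change 0.12, edgeR adjusted p = 0.404), and how reads of that stretch were assigned is not given in the sources used here. Within each library the log2 ratio of ITGA2 to ITGA1 counts was -0.76, -0.64 and -0.67 in controls and 0.59, 0.16 and 0.34 in knockdown cells. In raw counts, not corrected for gene length, ITGA1 was thus above ITGA2 in every control library and below it in every knockdown library. This ratio was likewise chosen after the values were seen.

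ITGAE was the only integrin gene that fell with all 6 libraries in the test. It encodes the alpha subunit with which intraepithelial lymphocytes bind E-cadherin and lies at chr17:3714628-3801188 (minus strand). It measured 11.5, 11.7 and 12.5 CPM in controls and 8.38, 8.78 and 8.55 CPM in knockdown cells. The groups were apart with a small spread, and the log2 fold change was -0.47 (SE 0.11, edgeR adjusted p = 0.0220). HASPIN, a mitotic histone kinase gene on the opposite strand, shares 427 exon bases with ITGAE, and the library kit does not keep the strand, so reads of that stretch cannot be told apart. HASPIN went from 13.3 to 11.1 CPM (log2 fold change -0.26, edgeR adjusted p = 0.128), and the summed count of both genes was lower, with a log2 difference of -0.36 (edgeR adjusted p = 0.0211). The ITGAE call was lost without shNTC+Dox replicate 1 or 2 (adjusted p = 0.0586 and 0.0553) and without shEHD1+Dox replicate 1 or 3 (0.0870 and 0.0829), at log2 fold changes between -0.50 and -0.44.

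The alpha subunits with the highest levels showed no change that passed. ITGA5, the fibronectin receptor subunit, had 151, 148 and 102 CPM in controls and 152, 141 and 145 CPM in knockdown cells. ITGAV, which pairs with several beta subunits to bind vitronectin and latent TGF-beta, had 127, 133 and 119 CPM against 127, 134 and 114 CPM. ITGA4, which binds VCAM1 and fibronectin, had 66.1, 65.2 and 56.8 CPM against 71.2, 69.6 and 61.1 CPM. In all 3 genes the groups overlapped, and the log2 fold changes were 0.13 (SE 0.14), -0.02 (SE 0.08) and 0.10 (SE 0.09), with edgeR adjusted p values of 0.566, 0.913 and 0.476. ITGA4 shares 2813 exon bases with CERKL on the other strand, which fell from 17.6 to 10.6 CPM (log2 fold change -0.74, edgeR adjusted p = 0.0484). The share of ITGA4 counts that came from that stretch was not tested.

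The other tested alpha subunits were expressed at lower levels. ITGA7, the laminin-binding alpha subunit of muscle, had 16.9 ± 1.38 CPM in controls and 16.9 ± 1.04 CPM in knockdown cells (SD, n = 3 each), while METTL7B, which shares 44 exon bases with it on the other strand, fell from 41.8 to 8.42 CPM (log2 fold change -2.31, edgeR adjusted p = 0.00123). ITGA3, another laminin-binding subunit, had 4.06 ± 0.83 and 5.14 ± 0.87 CPM, with a log2 fold change of 0.34 (SE 0.21, edgeR adjusted p = 0.308). Of ITGA3, ITGA6 and ITGA7, the 3 alpha subunits tested that are known first for binding laminin, ITGA6 was the 1 that passed. ITGA9, which binds tenascin and VCAM1, was at 1.97, 2.02 and 5.99 CPM in controls and at 4.14, 3.76 and 3.78 CPM in knockdown cells. Its log2 fold change was 0.24 (SE 0.41, edgeR adjusted p = 0.738) with all libraries and 0.96 (adjusted p = 0.00815) without shNTC+Dox replicate 3, the highest of the 6 values. ITGA10 and ITGA11, both collagen-binding, had at most 23 and 12 counts in any library and did not pass. The summed alpha subunit count was 409 ± 45.6 CPM in controls and 433 ± 19.4 CPM in knockdown cells, with a log2 difference of 0.08 (SE 0.09, edgeR adjusted p = 0.572) that became -0.0067 without shNTC+Dox replicate 3.

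ITGB2 was the member with the highest level and the only beta subunit that passed. ITGB2 encodes the beta subunit of the leukocyte integrins and lies at chr21:44885953-44931989 (minus strand). It measured 434, 437 and 346 CPM in controls and 554, 503 and 572 CPM in knockdown cells. All knockdown values were above the control values, with a log2 fold change of 0.42 (SE 0.10, edgeR adjusted p = 0.0235), which was lost without shEHD1+Dox replicate 1 (adjusted p = 0.0890) or replicate 3 (0.0975). The alpha subunits known to pair with ITGB2 were nearly absent. ITGAX and ITGAD had no count in any library, ITGAM had 7 counts in 1 library, and ITGAL had 6 and 14 counts in 2 of the shEHD1+Dox libraries and 0 in the others. Markers of leukocytes, the cells in which ITGB2 is known to be expressed, were listed together with markers of platelets. Of the 10 listed, 9 were under 1 CPM in every library, and CD3E, GP9 and PPBP were among those with no count at all. The remaining marker, CORO1A, passed the count filter, at 1.39 to 1.84 CPM in controls and 1.86 to 2.21 CPM in knockdown cells. The sum of all 10 ran from 1.82 to 2.42 CPM in controls and from 2.03 to 2.45 CPM in knockdown cells. The antisense gene ITGB2-AS1 shares 303 exon bases with ITGB2 and went from 20.1 to 21.5 CPM (log2 fold change 0.10, edgeR adjusted p = 0.700).

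ITGB1, the beta subunit common to most matrix-binding integrins, was at 421, 435 and 344 CPM in controls and at 434, 427 and 407 CPM in knockdown cells. The groups overlapped, and the log2 fold change was 0.08 (SE 0.09, edgeR adjusted p = 0.594) and -0.02 without shNTC+Dox replicate 3. In counts, not corrected for gene length, ITGB2 and ITGB1 were nearly level in control cells, with a log2 ratio of ITGB2 to ITGB1 of 0.04, 0.01 and 0.01. In knockdown cells this ratio was 0.35, 0.24 and 0.49, so it did not overlap with that in control cells, and ITGB2 made up 54.0% ± 2.07 of all integrin beta counts in place of 48.4% ± 0.71 (SD, n = 3 each). Per kilobase, mean ITGB2 was above ITGB1 in controls, at 55.6 against 27.5 over all exons and 84.8 against 71.2 over the longest transcript. ITGB5, which pairs with ITGAV, had 24.4, 26.4 and 29.4 CPM against 34.0, 31.4 and 31.5 CPM. Its log2 fold change of 0.27 (SE 0.09) had an edgeR adjusted p of 0.0731, which was 0.0148 (log2 fold change 0.35) without shNTC+Dox replicate 3. ITGB4, the partner of ITGA6 in hemidesmosomes, had 3.63 ± 0.84 and 4.29 ± 0.82 CPM, and ITGB3, the partner of ITGAV and ITGA2B, had 1.79 ± 0.11 and 1.89 ± 0.69 CPM, both in overlapping groups. ITGB6, ITGB7 and ITGB8 had 0, at most 5 and at most 1 count in any library. The summed beta subunit count was 838 ± 97.9 CPM in controls and 1004 ± 33 CPM in knockdown cells, with a log2 difference of 0.26 (SE 0.09, edgeR adjusted p = 0.0863) and of 0.17 without shNTC+Dox replicate 3 (adjusted p = 0.0851).

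The 12 members that failed the filter on counts had at most 14 counts in any library. Among them, ITGA8, ITGAD, ITGAX, ITGB6 and LAMA1 had 0 counts in all 6, and ITGA2B, the platelet alpha subunit, had at most 12. These genes were not tested, and a difference between groups was not detectable for them at this depth.

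Levels can be compared between genes only per length. On the scale of CPM per kilobase of all annotated exons, ITGB2 was highest in both groups (55.6 ± 7.12 in controls and 74.4 ± 4.90 in knockdown cells), followed by ITGB1 (27.5 ± 3.37 and 29.0 ± 0.97) and ITGA5 (18.1 ± 3.69 and 19.8 ± 0.73). LAMC1 came next at 12.1 ± 1.95 in controls and 19.6 ± 0.61 in knockdown cells. In knockdown cells its range of 19.0 to 20.2 overlapped with the range of 19.2 to 20.6 of ITGA5, whereas in control cells its highest value of 13.5 was below the lowest ITGA5 value of 13.9. LAMB1 (8.92 ± 0.53) and LAMB2 (8.79 ± 0.97) overlapped in controls and were apart in knockdown cells (9.98 ± 0.12 and 6.84 ± 0.51). ITGAV (6.53 and 6.46) and ITGA4 (5.88 and 6.32) completed the highest 8, and their ranges overlapped in both groups at 6.16 to 6.87 against 5.33 to 6.20 in controls and at 5.91 to 6.92 against 5.73 to 6.68 in knockdown cells. Per kilobase of the longest transcript the same 8 genes were highest in controls, with LAMB1 above LAMC1. In knockdown cells LAMA2 (11.35 ± 0.59) stood above ITGA4 (9.92 ± 0.81) and LAMB2 (8.25 ± 0.62) on that scale.

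**Figure D4:**
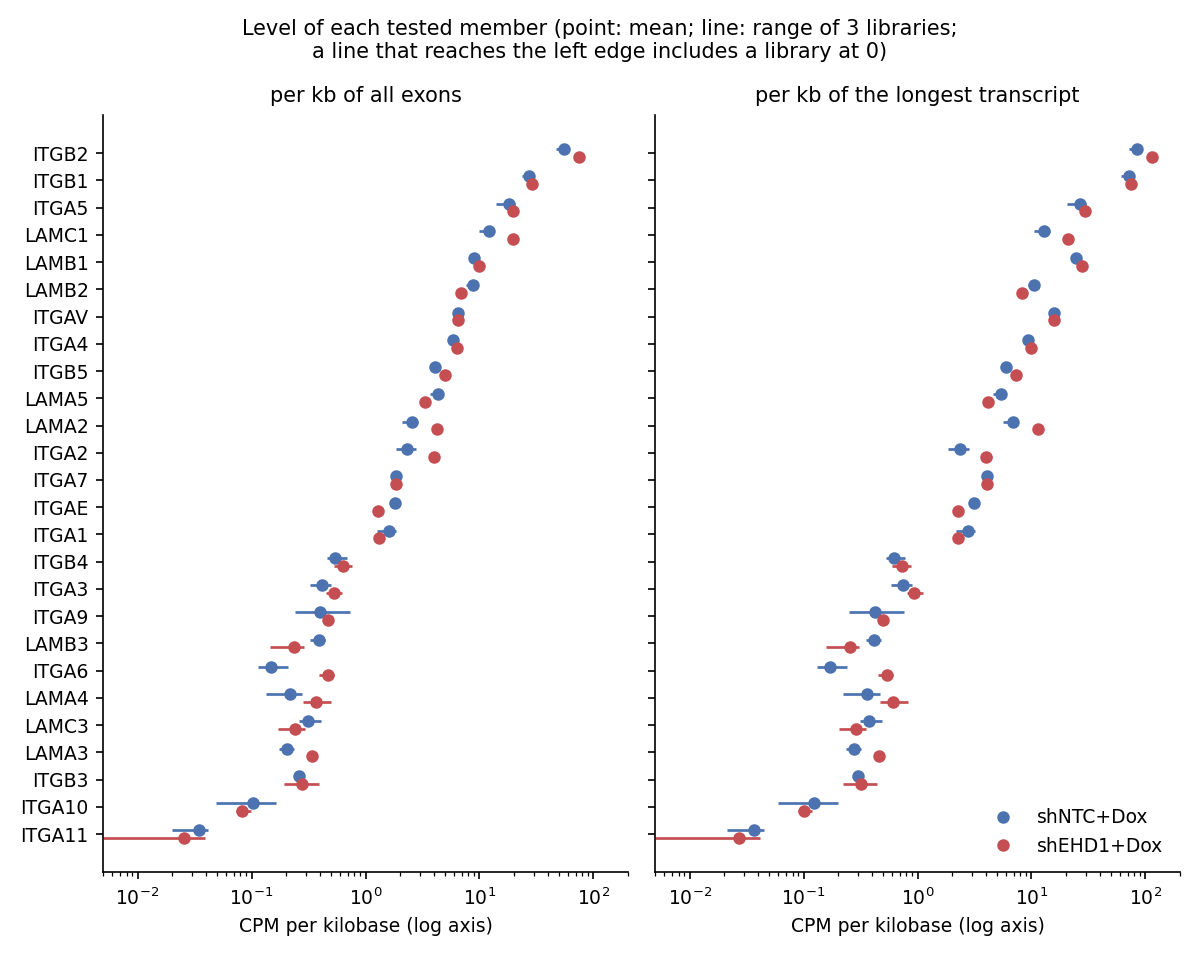
CPM per kilobase (x axis, log scale) of the 26 tested members by all annotated exons and by the longest transcript, with the mean and range of 3 libraries per group. ITGB2, ITGB1 and ITGA5 lead on both scales, and ITGA6 and LAMA3, which rose, lie near the lower end.

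Because ITGB1 pairs with 12 of the alpha subunits listed here, the sum of these 12 was set against ITGB1 per kilobase. The ratio per kilobase of all exons was 1.36 ± 0.02 in controls and 1.42 ± 0.02 in knockdown cells (SD, n = 3 each). Per kilobase of the longest transcript it was 0.88 ± 0.003 and 0.89 ± 0.009. Whether the alpha subunits together exceeded ITGB1 thus depended on the length used, and the ratio was slightly higher in knockdown cells on both scales. It is given without a test.

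Other genes of cell-matrix adhesion were listed by role. Of 21 listed genes whose products join laminin in basement membranes, 11 were tested. The others failed the count filter, among them the collagen IV genes COL4A1 and COL4A2. Like COL15A1 and SMOC1, these had no count in any library. Of the 11 tested, 4 rose and 0 fell in edgeR (0 also at an unadjusted p under 0.05 and in DESeq2). Their median log2 fold change was 0.36. The share that passed was 36.4%, against 17.3% of all tested genes (8.59% rose and 8.75% fell). NID1, which links laminin to collagen IV, went from 8.35, 8.19 and 4.70 CPM to 13.2, 12.5 and 13.7 CPM (log2 fold change 0.89, SE 0.21, edgeR adjusted p = 0.0205). NTN4, a laminin-related netrin that binds laminin gamma chains, went from 2.39, 3.28 and 3.31 CPM to 5.65, 5.92 and 6.29 CPM (log2 fold change 0.99, SE 0.19, edgeR adjusted p = 0.00860). FBLN1, a fibulin of basement membranes and elastic fibres, went from 43.7, 46.8 and 38.8 CPM to 67.9, 62.7 and 63.5 CPM (log2 fold change 0.58, SE 0.09, edgeR adjusted p = 0.00290). In each of these 3 genes the groups did not overlap, and SPARC was the fourth gene that rose. The calls of NTN4 and FBLN1 held with any 1 library left out. That of NID1 was lost without shEHD1+Dox replicate 1, 2 or 3 (adjusted p = 0.0722, 0.0583 and 0.0779) and that of SPARC in 5 of the 6 omissions, so that 2 genes rose without any 1 of the knockdown libraries.

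Of 15 tested laminin receptors other than integrins, 2 rose and 0 fell in edgeR (13.3% passed, with 1 lower at an unadjusted p under 0.05 and 0 lower in DESeq2), with a median log2 fold change of 0.16. Both belong to the dystrophin-related complex that ties laminin to the cytoskeleton through dystroglycan. SSPN, which encodes the membrane protein sarcospan, went from 15.7, 17.3 and 13.0 CPM to 31.4, 26.6 and 30.4 CPM (log2 fold change 0.94, SE 0.12, edgeR adjusted p = 0.00193). UTRN, which encodes the dystrophin homologue utrophin, went from 99.97, 100.4 and 87.1 CPM to 143.8, 160.4 and 137.6 CPM (log2 fold change 0.62, SE 0.09, edgeR adjusted p = 0.00230). Both calls held in all 6 omissions of a library. The share that passed was below that of all tested genes, which was 17.3% (8.59% rose and 8.75% fell).

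Of 22 tested integrin ligands other than laminin, 7 rose and 1 fell, with a median log2 fold change of 0.42. The share that passed was 36.4%, against 17.3% of all tested genes (8.59% rose and 8.75% fell). COL6A3 and COL6A2 encode chains of the microfibrillar collagen VI. COL6A3 went from 0.759, 1.3 and 0.716 CPM to 4.91, 4.98 and 5.84 CPM (log2 fold change 2.49, SE 0.27, edgeR adjusted p = 0.000694), and COL6A2 from 10.6, 10.4 and 4.29 CPM to 20.2, 17.4 and 20.5 CPM (log2 fold change 1.19, SE 0.31, edgeR adjusted p = 0.0361). EDIL3, a secreted ligand of ITGAV-containing integrins, went from 51.8, 58.7 and 34.0 CPM to 101, 92.8 and 91.6 CPM (log2 fold change 0.98, SE 0.18, edgeR adjusted p = 0.0103). COL3A1, COL5A1, MFGE8 and TGFB1 also rose, and LTBP1 fell. COL6A3, EDIL3, COL3A1 and TGFB1 passed in all 6 omissions. COL6A2 passed only without shNTC+Dox replicate 3 and lost its call in the other 5 (adjusted p from 0.0503 to 0.108), as did LTBP1, and COL5A1 and MFGE8 lost theirs in 2. The number that rose was 4 without shEHD1+Dox replicate 1 and 5 to 9 in the other omissions. Fibroblast markers, which include matrix genes, were present in part, with 4 of 6 at 1 CPM or more. Their sum ran from 86.5 to 143 CPM in controls and from 114 to 139 CPM in knockdown cells, and 1 of the 6, DCN, fell (log2 fold change -1.01, edgeR adjusted p = 0.00779). Their part in the results on matrix genes was not tested.

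Of 30 tested integrin activators and adhesion adaptors, 7 rose and 5 fell. This was 40.0%, against 17.3% of all tested genes (8.59% rose and 8.75% fell). The median log2 fold change of the list was 0.06. The largest changes were falls. KANK1, which binds talin at the rim of adhesions, went from 6.83, 4.98 and 7.34 CPM to 1.16, 1.14 and 1.23 CPM (log2 fold change -2.43, SE 0.22, edgeR adjusted p = 0.000285). FERMT3, the kindlin of blood cells, went from 28.8, 30.4 and 29.1 CPM to 14.4, 13.3 and 15.0 CPM (log2 fold change -1.05, SE 0.09, edgeR adjusted p = 0.000269). TNS1, a tensin that binds the tails of integrin beta subunits, went from 286, 274 and 296 CPM to 136, 155 and 145 CPM (log2 fold change -0.97, SE 0.07, edgeR adjusted p = 0.000155). KANK2 and ITGB1BP1, a negative regulator of ITGB1 activation, were the others that fell. The 7 that rose were TLN2, ACTN1, ILK, PTK2, FLNA, FERMT2 and VCL, with log2 fold changes from 0.21 to 0.70. KANK1, FERMT3, TNS1, KANK2, TLN2 and ACTN1 passed with any 1 library left out. The number that rose was 3 without shNTC+Dox replicate 1 or 2, 2 without shEHD1+Dox replicate 1 or 3, 4 without shEHD1+Dox replicate 2 and 8 without shNTC+Dox replicate 3, and the number that fell was 4 or 5.

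Of 12 tested tetraspanins and lateral partners of integrins, 0 rose and 1 fell in edgeR, with a median log2 fold change of -0.01. At an unadjusted p under 0.05, 3 were higher, and 1 was higher in DESeq2. The share that passed was 8.33%, against 17.3% of all tested genes (8.59% rose and 8.75% fell). The gene that fell was SLC3A2, an amino acid transporter subunit that binds integrin beta tails. It had a log2 fold change of -0.47 (SE 0.10, edgeR adjusted p = 0.0167). Its call was lost without shEHD1+Dox replicate 1 (adjusted p = 0.0734) or replicate 3 (0.0767). Without shNTC+Dox replicate 3, 2 genes of this list rose and 2 fell, and 1 rose without shEHD1+Dox replicate 2. Of 26 tested genes of integrin trafficking, EHD1 left out, 5 rose and 3 fell, with a median log2 fold change of 0.07. This was 30.8%, against 17.3% of all tested genes (8.59% rose and 8.75% fell). The largest of the changes that passed were MYO10, a filopodial myosin that carries integrins, at 0.33 (edgeR adjusted p = 0.0201), RAB4A, of the short recycling loop, at -0.31 (0.0412), and VPS35, of retromer, at -0.30 (0.0142). RAB11A, RAB7A, RASA1 and RUFY1 also rose and GGA3 fell. None of these 8 calls held in all 6 omissions. MYO10 lost its call without shNTC+Dox replicate 1 (adjusted p = 0.0511) or shEHD1+Dox replicate 3 (0.0716), VPS35 in 4 omissions and RAB4A in 5. Without shNTC+Dox replicate 1 all 8 calls were lost. Without shNTC+Dox replicate 2 or shEHD1+Dox replicate 2 the number that rose was 2, without shEHD1+Dox replicate 1 or 3 it was 1, and at most 1 fell in each of these, whereas 6 rose and 3 fell without shNTC+Dox replicate 3.

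**Figure D5:**
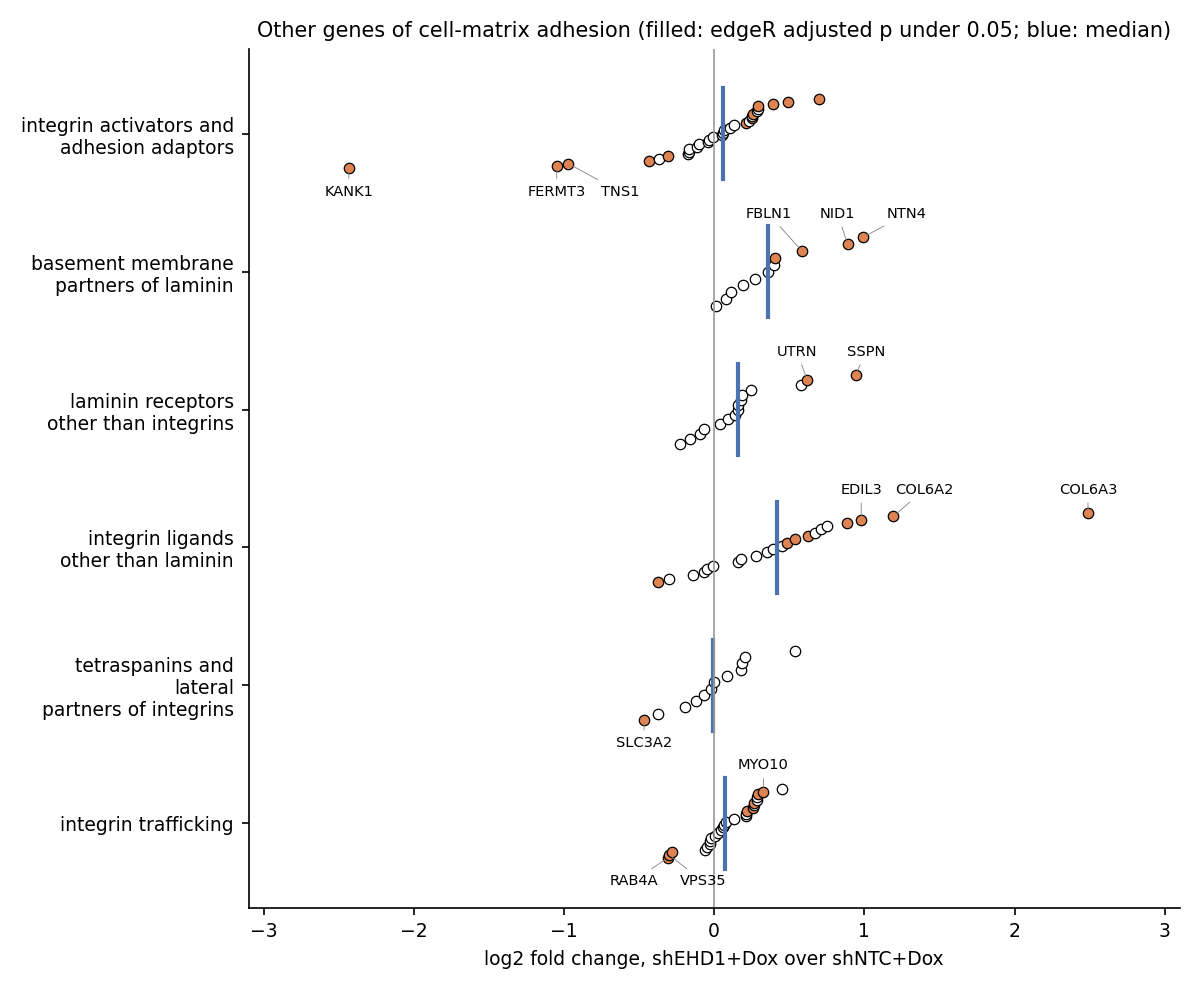
Log2 fold change (x axis) of the tested genes of 6 lists, with 1 point per gene, filled where the edgeR adjusted p was under 0.05, and a blue line at the median of each list. The medians lie from -0.01 for tetraspanins and lateral partners to 0.42 for integrin ligands other than laminin, and KANK1 at -2.43 and COL6A3 at 2.49 are the farthest points.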

How the data were processed

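TruSeq RNA libraries of all 6 samples were sequenced as paired ends. The deposited values were the authors' gene-level counts, whole numbers that had not been normalized. The study's methods name hisat2 and StringTie on hg38 with Ensembl annotations, whereas the submitters' processing notes list STAR 2.7.3a and DESeq2. How the counts were made, and how reads that match more than 1 gene were treated, is not given in the sources used here. The kit does not keep the strand.

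Counts were scaled by TMM and tested with edgeR 4.0.16 in R 4.3.3 (glmQLFit, robust, and glmQLFTest) on the 16785 genes that reached 10 counts in 3 or more libraries. P-values were adjusted over all of these genes by the Benjamini-Hochberg method. The thresholds were an adjusted p of 0.05 and, where stated, a 2-fold change. SE was the absolute log2 fold change divided by the square root of F. An exact permutation test of 3 against 3 libraries cannot go below p = 0.1, so none is quoted. Nothing says that replicates were separate cultures, so p-values measure only the spread between these libraries. Floors cover counting error only.

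Exons, lengths and overlaps came from GENCODE 44 (60357 identifiers, 99.5%, matched). Named with all values were members that passed or were among the 8 highest per length, and up to 3 passing genes per adhesion list with the largest change. Other single genes, such as ITGA1, ITGA9 and ITGB5, were named after their values were seen, as were all ratios, shares and the sum with HASPIN. Values of some single genes are not reported here. The members and lists were chosen with earlier results of these data known. Deviations of libraries with the same replicate number correlated at 0.072, -0.059 and -0.045, so the numbers were not used as pairs. The alternatives were DESeq2 size factors, the Wald test of DESeq2 1.42.0, 2 other filters, a replicate block, a 2-fold threshold within the model and each library left out (for the adhesion lists, chosen after seeing the data). Counts were also simulated for this comparison, with a log2 change of 1.5 in 200 of 16785 genes. There, a call had to pass at 0.05 after adjustment and also move at least 2-fold. By that rule edgeR recovered 76.5% and made 9 false calls. These rates do not cover calls of smaller changes made without the 2-fold condition. Such calls include all members that passed except ITGA6.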

Additional observations from a re-analysis of the deposited data

How the results depend on the processing

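ITGA2, ITGA6, LAMA2 and LAMC1 passed in edgeR and DESeq2 under all 5 other settings for scaling, filter, test and block and in all 6 omissions of a library. ITGAE, ITGB2, LAMA3, LAMA5 and LAMB2 kept their direction but lost their calls in 2 to 5 of the 6 omissions, and LAMB2 also with no filter on low counts (adjusted p = 0.0507). Over the omissions, the number of members that rose ran from 4 to 8 and the number that fell from 0 to 4. With a replicate block in the fit, although the numbers were not found to pair the samples, 4 members rose and 0 fell in edgeR (3 lower at an unadjusted p under 0.05), with adjusted p values of 0.0708 for ITGAE, 0.0619 for ITGB2, 0.0634 for LAMA3, 0.0715 for LAMA5 and 0.0750 for LAMB2. The block changed no other call of a single member. Among single members, directions turned only in 8 that did not pass. Over the omissions their log2 fold changes ran from -0.61 to 0.24 for ITGA10, -0.94 to 0.16 for ITGA11, -0.0323 to 0.222 for ITGA5, -0.0620 to 0.0547 for ITGA7, -0.0326 to 0.961 for ITGA9, -0.0675 to 0.0453 for ITGAV, -0.0168 to 0.145 for ITGB1 and -0.24 to 0.28 for ITGB3. ITGA7 was at 0.0156 and ITGAV at 0.000439 with no filter, and ITGA7 at 0.000986 with the replicate block. The laminin sum had a log2 difference of 0.29 and an adjusted p of 0.0759 with the block, 0.29 and 0.0503 with DESeq2 size factors, and 0.20 to 0.34 over the omissions. The beta sum passed in DESeq2's Wald test at 0.26 (adjusted p = 0.0314), and the alpha sum ran from -0.0067 to 0.14 over the omissions. With the 2-fold threshold tested within the model, 0 members, 7 genes in all on the higher side and 32 on the lower side passed. Of all genes, 103 to 205 rose and 190 to 265 fell by at least 2-fold over the omissions, against 181 and 292 with every library.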
